A study of Mus musculus with 3 samples.

Results

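The genes described here encode secreted factors that direct blood vessel growth, namely the vascular endothelial growth factors (VEGFs), angiopoietins and angiopoietin-like proteins, together with Hif1a, the oxygen-regulated subunit of hypoxia-inducible factor 1 (HIF-1). They were chosen by name, and all 10 were listed among the 25410 gene symbols: Vegfa, Vegfb, Vegfc, Figf (the gene now called Vegfd), Pgf, Angpt1, Angpt2, Angptl2, Angptl4 and Hif1a. Their transcripts were counted by RNA-seq, after removal of ribosomal RNA, in IDG-SW3 cells, a conditionally immortalized mouse line grown with interferon-gamma in the cool and then differentiated towards osteocytes without it at body temperature. The single group held 3 biological replicate libraries at day 35 of differentiation, each treated for 24 h with 100 nM parathyroid hormone (PTH). Vehicle-treated libraries were not analysed here, so no effect of PTH on any gene was measured, and the values are levels in treated cells of 1 line.

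Blood vessels invade bone with the cells that build it, and osteoblasts and osteocytes are a known source of vessel-directing signals. VEGF-A binds the receptors Flt1 and Kdr on endothelial cells, with neuropilins as coreceptors, VEGF-B and placental growth factor (Pgf) bind Flt1, and VEGF-C and VEGF-D are best known for acting through Flt4 on lymphatic vessels. Angiopoietin 1 activates the receptor Tek and stabilizes vessels, and angiopoietin 2 opposes it in many settings. HIF-1 joins Hif1a to Arnt on the hypoxia response element and is best known for inducing Vegfa when oxygen falls. In oxygen, the Egln prolyl hydroxylases mark the Hif1a protein for destruction through Vhl, so the Hif1a transcript level does not give the activity of the factor.

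The library totals were 35195518, 37299517 and 45240005 counts in replicates 1, 2 and 3. Levels are given as RPKM (counts per kilobase of transcript and per 1000000 counts of the library), as the mean ± SD over the libraries (n = 3 throughout), and every level rests on reading the deposited whole numbers as counts. Each level was tested against 1 RPKM, a fixed reference for low expression, with edgeR's quasi-likelihood test over all genes, and a gene that did not pass the adjusted threshold of 0.05 is called unresolved. Across all 20983 genes tested, 43.2% were above 1 RPKM and 9.84% were below it. Osteoblast and osteocyte markers were as labelled in part: 8 of 12 were above 1 RPKM, led by Sparc (osteonectin), Col1a2, Ibsp and Postn. Dmp1, Mepe, Sost and Fgf23, which mark mature osteocytes, were unresolved, with means of 0.652, 0.436, 0.00917 and 0.266 RPKM. Sost had 2, 0 and 0 counts, and the alternative tests DESeq2 (adjusted p = 0.0435) and limma (adjusted p = 8.54e-06) called it below. limma also called Mepe (adjusted p = 0.0253) and Fgf23 (adjusted p = 0.00446) below.

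The 8 genes listed in 1 row ran from 177 RPKM for Hif1a to 0.618 for Angpt2, and Vegfb and Vegfa, in several rows, were at or near 0. Of the 9 tested, 6 were above 1 RPKM, 3 were unresolved and 0 were below, against the 43.2% above and 9.84% below over all genes. At an unadjusted p under 0.05 edgeR again placed 0 below. At the adjusted threshold DESeq2 placed 0 below and limma 1. The same 6 were above with any library left out. In order of level, those above were Hif1a, Angptl2, Angpt1, Angptl4, Figf and Pgf; Vegfc, Angpt2 and Vegfb were unresolved and Vegfa was at 0 in every library. The median was 3.78 RPKM over the 10 genes and 0.497 RPKM over all genes with a length. The genes that were above were all among the 8 with 1 row in the deposited files, where 45.4% of all such genes tested were above.

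**Figure D1:**
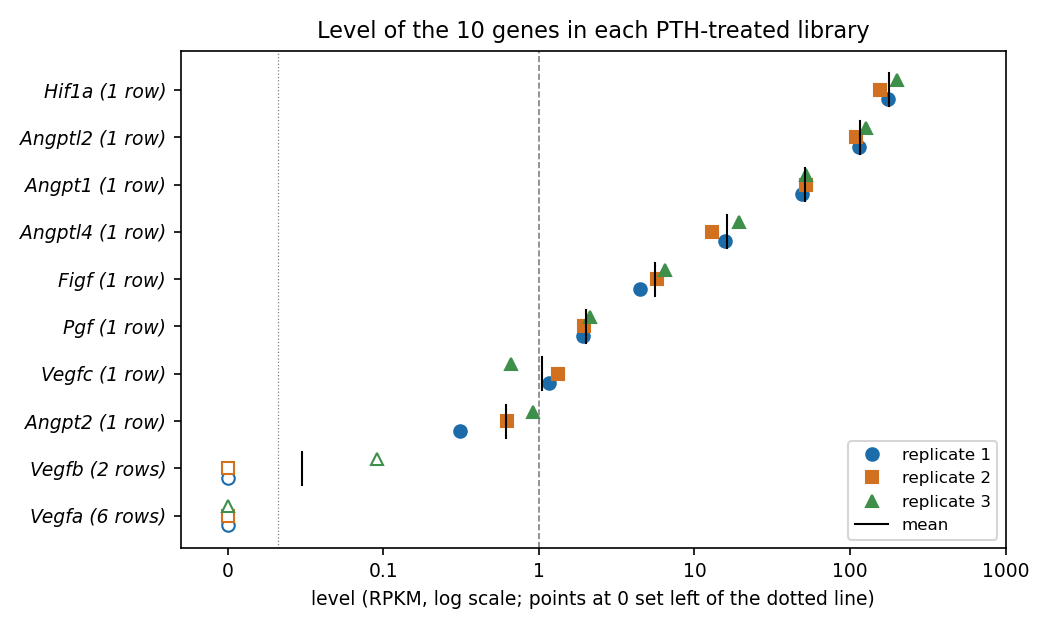
Level (RPKM, log scale) of each of the 10 genes in the 3 PTH-treated libraries, with the mean as a vertical bar, values of 0 left of the dotted line, and the dashed line at 1 RPKM; open symbols mark genes listed in several rows. The genes run from Hif1a at 177 RPKM to Vegfa at 0, and the libraries lie close together for Angpt1 and Pgf and far apart for Angpt2.

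Hif1a, the transcription factor of the group, had the highest level. It stood at 174, 156 and 199 RPKM in replicates 1, 2 and 3, a mean of 177 ± 21.3 that ranked 417 among the 23017 genes with a length. Replicate 3 was the highest and replicate 2 the lowest. The log2 level against 1 RPKM was 7.46 (edgeR quasi-likelihood test, adjusted p = 5.6e-62), and it was 8.78 with the shortest annotated transcript as length. Exons of Hif1a overlap those of the annotated genes Gm15283 on the opposite strand and Gm49321 on the same strand. The use of strand in counting is not given in the sources used here, so reads of these genes cannot be told apart from its own.

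The promoter of Hif1a is shown because it is that of the highest gene of the group and itself holds the core letters of the element that HIF-1 binds, and the promoter of Pgk1 because that glycolytic gene was the highest of the known HIF target genes described below. Each window runs from 250 bases before to 50 after the transcription start (RefSeq, GRCm38.p6), 5′ to 3′ on the gene's strand, with capitals at ACGTG on either strand. The Hif1a window is chr12:73907617-73907916 and the Pgk1 window chrX:106186850-106187149, both on the plus strand.
Hif1a: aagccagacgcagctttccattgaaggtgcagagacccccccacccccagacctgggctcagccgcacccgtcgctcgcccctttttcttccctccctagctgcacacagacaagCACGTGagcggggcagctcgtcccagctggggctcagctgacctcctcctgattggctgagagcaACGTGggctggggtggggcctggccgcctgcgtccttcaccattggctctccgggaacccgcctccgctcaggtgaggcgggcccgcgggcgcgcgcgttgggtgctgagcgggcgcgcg
Pgk1: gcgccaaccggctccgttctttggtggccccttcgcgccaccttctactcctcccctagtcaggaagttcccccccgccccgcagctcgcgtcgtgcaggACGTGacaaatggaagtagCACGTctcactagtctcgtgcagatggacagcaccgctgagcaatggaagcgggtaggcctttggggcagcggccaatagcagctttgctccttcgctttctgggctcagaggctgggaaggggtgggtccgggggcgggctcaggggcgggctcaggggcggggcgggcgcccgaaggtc
In the Hif1a window ACGTG matched at 3 positions, of which the pair within CACGTG overlap each other on opposite strands. In the Pgk1 window it matched at 2. Of the 10 genes, 7 had a promoter window in the table, and ACGTG was present for 2 of them, Hif1a and Vegfa. In windows, that was 22.2% of 9, against 19.6% of all 32851 windows of this length. Among known HIF target genes it was 60.0% of 20 windows. TGACG, the core of the cyclic AMP response element through which PTH signalling can act, was in 22.2% of the windows of the group (Angptl2 and Vegfa) and in 20.8% of all windows, and it overlaps ACGTG in the run TGACGTG. These are matches of letters in a short window and say nothing of binding.

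Angptl2 had the highest level of the secreted members, and Angptl4, the other angiopoietin-like gene of the group, came after Angpt1. Angptl2, a secreted glycoprotein linked to inflammation and vessel growth, stood at 114, 109 and 126 RPKM, a mean of 116 ± 8.78 (log2 level 6.86, edgeR adjusted p = 9.76e-59). Angptl4, an inhibitor of lipoprotein lipase and a known target of both PPAR receptors and HIF-1, stood at 15.8, 13.0 and 19.4 RPKM, a mean of 16.1 ± 3.23 (log2 level 4.01, edgeR adjusted p = 1.08e-38). Angptl2 exceeded Angptl4 in every library, by 7.20-, 8.41- and 6.49-fold. The log2 ratio of RPKM + 0.1 was 2.87 ± 0.19. A sign-flip permutation test over 3 libraries cannot give an exact two-sided p under 0.25, so ratios between genes are given with their spread and without a p.

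Of the other angiopoietin family genes, taken from a list fixed by name, 1 of 4 was above 1 RPKM, 0 were below and 3 were unresolved. With edgeR 0 were below also at an unadjusted p under 0.05. At the adjusted threshold DESeq2 called 0 below and limma 2. The one above was Angpt4, a further ligand of Tek, at 27.7 ± 1.20 RPKM. Angptl6, Angptl7 and Angptl1 had means between 0.269 and 0.736 RPKM. Of the genes linked to Angptl4 in lipid metabolism, 1 of 4 was above 1 RPKM. Lpl, the lipase that Angptl4 inhibits, stood at 3.79 ± 0.318 RPKM and was above, and Ppard was unresolved at 1.40 ± 0.985. Pparg (0.217 ± 0.194, unresolved) and Ppara (at 0) were listed in 2 rows each and are not read as low. Because Angptl4 is also abundant in adipocytes, their markers are given beside it: 2 of 4 were above. Fabp4 stood at 9.72 ± 3.19 RPKM and Adipoq at 1.88 ± 1.16, and Cidec was unresolved at 0.202 ± 0.218. Plin1 was at 0, but it was listed in 2 rows and is likewise not read as low. The summed level of the adipocyte markers was 9.54, 9.70 and 16.2 RPKM, and like Angptl4 it was highest in replicate 3. In that library all 6 of the group's genes above 1 RPKM were highest, and 43.1% of all genes with 1 row above it. From replicate 1 to 2 Angptl4 went from 15.8 down to 13.0 RPKM, while the sum of the markers did not fall. Most of that sum was Fabp4, which rose from 7.04 to 8.89 RPKM between these libraries. Adipoq fell from 2.07 to 0.643 and Cidec from 0.434 to 0.173, as Angptl4 did. The part of adipocytes in the level of Angptl4 was not tested. The Adipoq call was lost without replicate 3 (edgeR adjusted p = 0.29), with DESeq2 (adjusted p = 0.507) and with limma (adjusted p = 0.137).

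The angiopoietins that bind Tek were far apart. Angpt1 stood at 49.2, 52.1 and 52.4 RPKM, a mean of 51.2 ± 1.78 with the smallest relative spread of the group at 3.48% (log2 level 5.68, edgeR adjusted p = 1.14e-52). Angpt2 stood at 0.311, 0.625 and 0.919 RPKM, a mean of 0.618 ± 0.304, and was unresolved (log2 level -0.69, edgeR adjusted p = 0.101). No library of Angpt1 came near the range of Angpt2. Angpt1 exceeded Angpt2 158-, 83.3- and 57.0-fold in replicates 1, 2 and 3, a log2 ratio of 6.25 ± 0.61, while the counts of Angpt2 were 39, 83 and 148. Exons of Angpt1 overlap those of the antisense gene Gm17473, so the share of its counts from that gene is unknown.

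Among the VEGF ligands, Figf was the most abundant of those that could be read. Figf, the ligand VEGF-D, stood at 4.45, 5.78 and 6.42 RPKM, a mean of 5.55 ± 1.00 (log2 level 2.47, edgeR adjusted p = 2.06e-22). Pgf stood at 1.92, 1.96 and 2.14 RPKM, a mean of 2.01 ± 0.113 (log2 level 1.01, edgeR adjusted p = 0.000107). The libraries of Pgf lay close together and all above 1 RPKM, but DESeq2 did not call it (adjusted p = 0.426).

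Vegfc, the lymphatic growth factor closest to VEGF-D in receptor use, stood at 1.17, 1.32 and 0.662 RPKM, a mean of 1.05 ± 0.346. It lay on either side of 1 RPKM and was unresolved (edgeR adjusted p = 0.863). Its place depended on the length taken, with a log2 level of 0.07 at the median transcript, 1.51 at the shortest (edgeR adjusted p = 0.000125) and -0.63 at the longest (edgeR adjusted p = 0.166). Vegfc was lower than Figf in every library, with log2 ratios of -1.84, -2.05 and -3.10 and a mean of -2.33 ± 0.67. With the shortest transcripts the mean was -0.98.

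**Figure D2:**
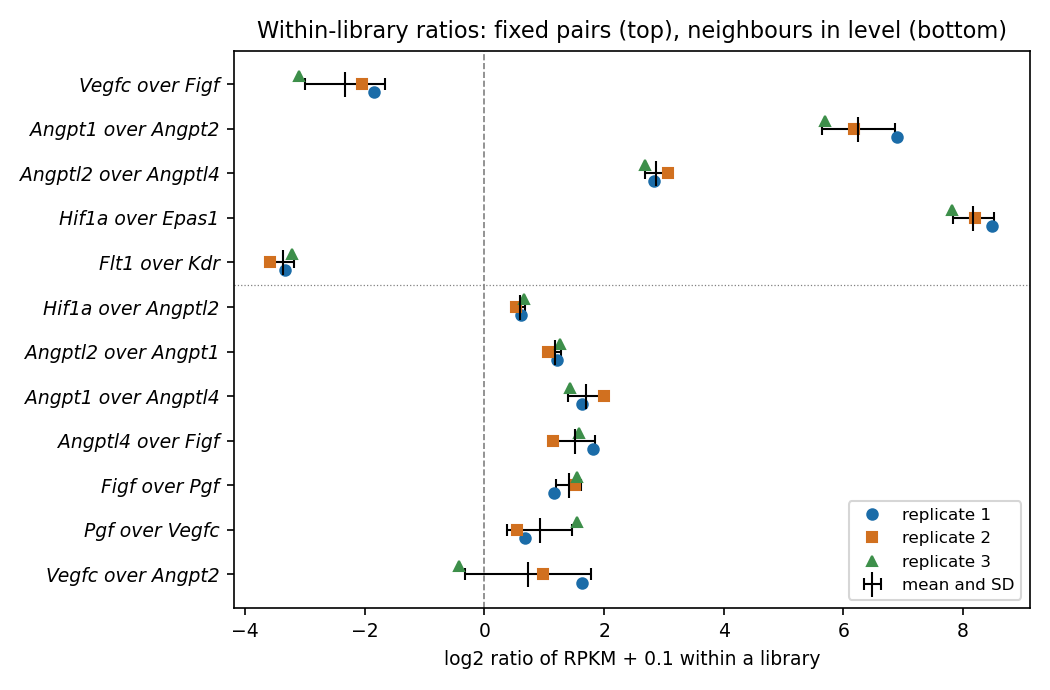
Within-library log2 ratio of RPKM + 0.1 for each pair with counts in every library, with points for replicates and bars for mean and SD; fixed pairs stand above the dotted line and neighbours in level below it. Vegfc over Angpt2 is the only pair shown whose points lie on both sides of 0.

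In the order of levels, the ranges of neighbouring genes did not overlap from Hif1a down to Vegfc. Hif1a exceeded Angptl2 by a log2 ratio of 0.60 ± 0.07, Angptl2 exceeded Angpt1 by 1.18 ± 0.10, and Angpt1 exceeded Angptl4 by 1.69 ± 0.29. Angptl4 exceeded Figf by 1.51 ± 0.33, Figf exceeded Pgf by 1.41 ± 0.21, and Pgf exceeded Vegfc by 0.92 ± 0.55. Vegfc and Angpt2 did not differ beyond their spread, at 0.73 ± 1.05, and their order was turned in replicate 3. With the shortest transcripts the order of Pgf and Vegfc turned, at 2.32 and 2.85 RPKM. These neighbours were paired after their levels were seen.

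Vegfa, the central angiogenic ligand and a classical HIF-1 target, was listed in 6 rows, and each row held 0 in every library. Vegfb was listed in 2 rows, with 0, 0 and 5 counts in replicates 1, 2 and 3, a mean of 0.0302 RPKM. It was unresolved by edgeR (adjusted p = 0.126) and called below 1 RPKM by limma (adjusted p = 3.47e-05). By counting error alone, 0 counts allow up to 3, which for Vegfa is 0.058 to 0.0746 RPKM across the libraries. That limit does not bound the transcript, because symbols listed in several rows were often at or near 0, also for genes that cells in culture use. Ldha, the lactate dehydrogenase subunit gene listed in 2 rows, stood at 0.804 ± 0.60 RPKM, whereas Pgk1, from the same glycolytic route and listed in 1 row, stood at 663 ± 53.7.

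The number of rows moved with the share of genes at 0 across the whole table. Of 19725 symbols with 1 row and a length, 5.0% were at 0 in all libraries, against 29.8% of 2248 symbols with 2 rows and 50.0% of 86 symbols with 6 or more. The share above 1 RPKM among those tested was 45.4% for symbols with 1 row and 24.9% for symbols with several. The overlap of transcripts moved with it too. Among symbols with several rows and several annotated transcripts, 40.1% of 1529 were at 0 where under 20% of the exonic bases lay in only 1 transcript, and 18.3% of 627 where over 50% did. For Vegfa this private part was 0.0% over its 8 annotated transcripts, and for Vegfb it was 9.6%. Whether reads shared by transcripts were dropped in counting was not tested, and Vegfa and Vegfb are not read as absent.

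**Figure D3:**
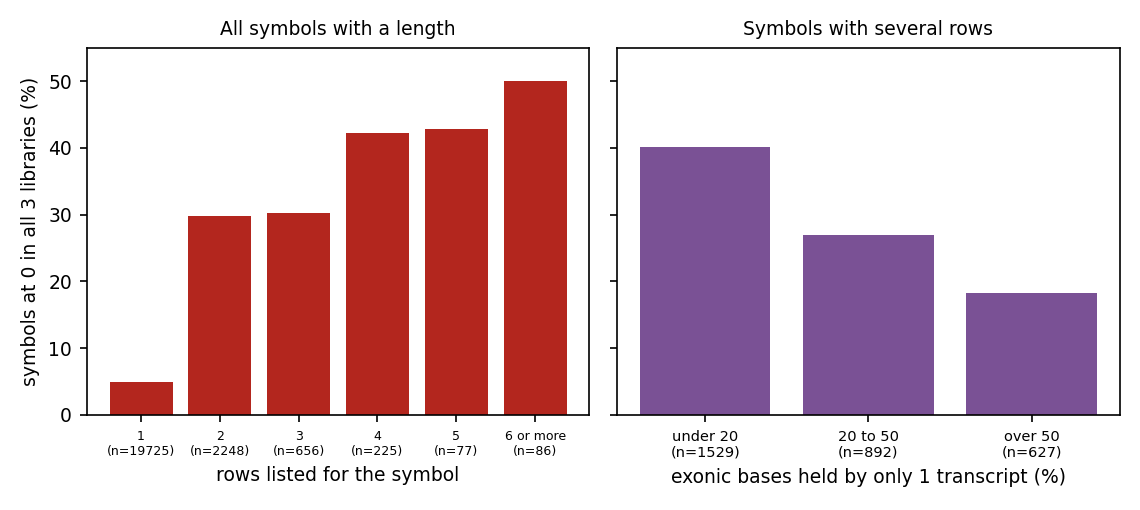
Percent of symbols at 0 in all 3 libraries, by the number of rows listed for the symbol (left, all symbols with a length) and, for symbols with several rows, by the percent of exonic bases held by only 1 annotated transcript (right); n under each bar is the number of symbols. The share rises from 5.0% with 1 row to 50.0% with 6 or more, and falls from 40.1% to 18.3% as the private part grows.

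Of the 12 pairs fixed by name, 7 held a gene at 0 in at least 1 library (Vegfa, Vegfb or Arnt), and no ratio is given for them. Of the 7 receptors of these ligands, 2 were above 1 RPKM, 3 were below, 1 was unresolved and 1 was at 0. Nrp1, the coreceptor neuropilin 1, stood apart at 106 ± 6.17 RPKM, near the level of Angptl2. Kdr, the main signalling receptor of VEGF-A, stood at 2.41 to 2.76 RPKM, a mean of 2.62 ± 0.185 (log2 level 1.39, edgeR adjusted p = 9.36e-15), but DESeq2 did not call it (adjusted p = 0.172). Flt1 (0.165 ± 0.0501), Flt4 (0.514 ± 0.206) and Tek (0.336 ± 0.122) were below 1 RPKM. The Flt4 call was lost without replicate 1 (edgeR adjusted p = 0.0775) and the Tek call without replicate 2 (edgeR adjusted p = 0.0624), and DESeq2 called none of the 3. Flt1 was lower than Kdr in every library, by a log2 ratio of -3.37 ± 0.19. Tie1 was unresolved at 0.0556 ± 0.0518 RPKM, and Nrp2, listed in 6 rows, was at 0 and is not read as low.

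Endothelial and mural cell markers were measured beside the receptors. Of 10 endothelial markers 0 were above 1 RPKM with edgeR, also at an unadjusted p under 0.05, and 0 with DESeq2 or limma at the adjusted threshold. At that threshold edgeR called 1 below, DESeq2 0 and limma 6. The highest at the median length were Vwf at 0.751 ± 0.252 RPKM, Sox17 at 0.213 ± 0.0959, Cdh5 at 0.128 ± 0.121 and Erg at 0.0921 ± 0.0974. Vwf was unresolved there, with a log2 level of -0.41, and was called below with the longest transcript (-2.43, edgeR adjusted p = 0.000313). Pecam1, Emcn and Egfl7 were at 0, but each was listed in several rows. The summed level of the endothelial markers was 1.25, 1.39 and 1.31 RPKM. Of 5 mural cell markers 0 were above at the median length with edgeR, also at an unadjusted p under 0.05, and 0 with DESeq2 or limma at the adjusted threshold. The highest were Notch3 at 0.813 ± 0.108, Kcnj8 at 0.729 ± 0.20, Rgs5 at 0.647 ± 0.329 and Cspg4 at 0.558 ± 0.0773 RPKM. Rgs5 was called above with the shortest transcript (log2 level 1.11, edgeR adjusted p = 0.00762) and below with the longest (-1.39, edgeR adjusted p = 0.0165). Abcc9 was at 0, but it was listed in 4 rows.

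Of the 10 oxygen sensing genes around Hif1a, 6 were above 1 RPKM, 2 were below and 2 were at 0. Those above were 6 of the 8 with 1 row, and the 2 below, Epas1 and Arnt2, had 1 row as well. Vhl, the ubiquitin ligase subunit, stood at 66.2 ± 6.99 RPKM. The prolyl hydroxylase genes Egln1, Egln3 and Egln2 stood at 60.5 ± 10.2, 26.5 ± 5.96 and 22.4 ± 3.06, and the asparaginyl hydroxylase gene Hif1an and the HIF inhibitor gene Cited2 were above as well. Epas1, which encodes the related subunit HIF-2α, stood at 0.535 ± 0.218 RPKM and was called below (edgeR adjusted p = 0.0173), a call lost without replicate 1 (0.108) or replicate 2 (0.108). Neither DESeq2 (adjusted p = 0.653) nor limma (adjusted p = 0.0547) called Epas1 below. Hif1a exceeded Epas1 452-, 362- and 253-fold in replicates 1, 2 and 3, a log2 ratio of 8.17 ± 0.34. Arnt and Hif3a were at 0 in 2 rows each, and Arnt2 was below at 0.175 ± 0.0612, a call lost with DESeq2 (adjusted p = 0.508).

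Known HIF target genes were above 1 RPKM in 12 of 16 cases, and these were all of the 12 with 1 row. With any library left out the number above was again 12. With DESeq2 it was 11, as Car9 was not called (DESeq2 adjusted p = 0.224). Pgk1 was followed by the collagen hydroxylase gene P4ha1 at 319 ± 33.6 RPKM, the mitophagy gene Bnip3 at 119 ± 3.18 and the pyruvate dehydrogenase kinase gene Pdk1 at 101 ± 14.8. The other 4, Ldha, Mxi1, Kdm3a and Pfkfb3, had several rows each, and their means ran from 0 to 0.804 RPKM. The list's median was 41.2 RPKM, and 61.2 over the genes with 1 row, against 0.694 over all genes with 1 row. These genes respond to other signals too, and without an untreated or hypoxic library their levels say nothing of induction.

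**Figure D4:**
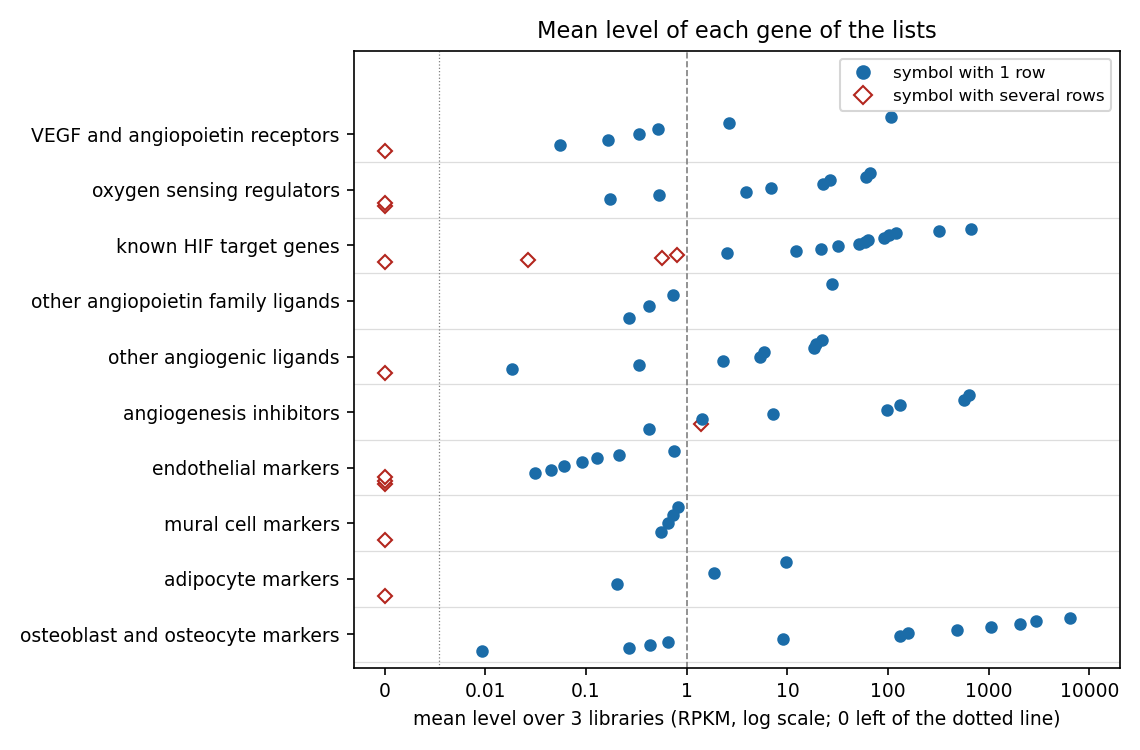
Mean level over the 3 libraries (RPKM, log scale) of every gene of the lists named on the axis, 1 point a gene, with values of 0 left of the dotted line and the dashed line at 1 RPKM. All 12 HIF target genes with 1 row lie above 1 RPKM and the 4 with several rows below it, and the endothelial markers all lie under 1 RPKM.

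Replicate 3 was the highest library for the group's genes above 1 RPKM and the lowest for most HIF target genes. Each of the 6 genes above 1 RPKM had its highest level there, against 43.1% of the 8495 genes with 1 row above 1 RPKM. With TMM scaling it was 5 of 6, against 38.0%. By contrast, 11 of the 12 HIF target genes above 1 RPKM had their lowest level in replicate 3, against 29.3% of those 8495 genes, and 11 of 12 also with TMM scaling, against 33.8%. Like shifts were seen in some other lists. The receptors above 1 RPKM (2 of 2) and the adipocyte markers above it (2 of 2) were highest in replicate 3. The oxygen sensing genes above it were lowest there in 4 of 6 cases and the osteoblast and osteocyte markers in 5 of 8, or 7 of 8 with TMM scaling. Of the 5 angiogenesis inhibitors with 1 row above 1 RPKM, 1 was highest and 2 were lowest in replicate 3. Hif1a stood at 199 RPKM in the library where Pgk1 was lowest at 603, and this describes 1 library. The pattern was looked for after the values were seen.

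The spread between libraries exceeded counting error for most of the group. The variance of the counts around their expected share was 462 times the counting variance for Hif1a, 91.8 for Angptl2, 87.4 for Angptl4 and 9.87 for Angpt1. The median was 11.6 over 13923 genes with 1 row and a mean count of 20 or more. At the same relative spread this ratio grows with the count, so it does not rank genes of unlike counts. Col1a2, with far more counts, had a ratio of 594 at a coefficient of variation of 3.07%. Pgf lay within counting error at 0.483. The coefficient of variation of the RPKM was 12.1% for Hif1a, 5.65% for Pgf, 20.1% for Angptl4, 32.8% for Vegfc and 49.1% for Angpt2.

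Other secreted regulators of vessels, from lists fixed by name, included abundant inhibitors. Of 8 angiogenesis inhibitors 6 were above 1 RPKM, and 5 without replicate 1 or replicate 2 and 7 without replicate 3. Thbs2 and Thbs1, the thrombospondins, stood at 639 ± 17.4 and 130 ± 7.57 RPKM, Timp3 at 564 ± 24.4, and Serpinf1, which encodes pigment epithelium-derived factor, at 97.2 ± 1.07. Of 9 other angiogenic ligands 6 were above, 2 were unresolved and 1 was at 0. The one at 0, Ang, was listed in 2 rows and is not read as low. Hgf (hepatocyte growth factor) stood at 22.3 ± 2.70, Pdgfd at 19.4 ± 2.35, Pdgfc at 18.4 ± 2.85 and Fgf2 at 5.90 ± 1.62, and exons of Fgf2 overlap Nudt6 on the opposite strand. Several other genes named here have such overlaps, among them Timp3, Thbs1, Pdgfc, Bnip3 and Egln2 on the opposite strand. Exons of Hgf and Nrp1 overlap annotated genes on the same strand. With the longest transcripts Fgf2 and Fgf1, both above at the median length, turned to below 1 RPKM (log2 levels -0.92 and -0.85, edgeR adjusted p = 0.0105 and 0.0436). DESeq2 called 5 of the 9 above. Angptl2 and Angpt1 were thus higher than each of these ligands listed in 1 row, and Figf and Pgf were lower than Hgf, Pdgfd and Pdgfc.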

How the data were processed

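The 3 deposited files hold whole numbers for 30795 transcript rows named by gene symbol. Their names say RPKM, but per the values they were used as the authors' raw counts. TopHat and the mouse build mm9 are named per the submitters' processing notes; for the counting tool, annotation and use of strand, the entry is: not given in the sources used here. Rows were summed per symbol. Transcript lengths were medians over GENCODE M21 basic transcripts (GRCm38), with 20840 symbols matched directly and 2177 by synonym and 2393 left out. Levels against 1 RPKM were tested with edgeR 4.0.16 (intercept only, trended dispersion, robust, offset at 1 RPKM, two-sided) on all genes above 0 in at least 1 library, with Benjamini-Hochberg adjustment. limma 3.58.1 on log2(RPKM + 0.1), DESeq2 1.42.0, TMM, other lengths, a filter and left-out replicates were alternatives. The edgeR script was tested on simulated data. Ratios use a pseudocount of 0.1, which understates folds of low genes. The members, lists and pairs were chosen with earlier results of these data known. Named genes were the members, the pairs' genes and up to 4 of the highest of each list; others were named after their values were seen, and 1 listed gene is not reported here. p-values rest on the spread between libraries of 1 line, with variance shared across genes, and counting limits cover counting error only. Their size depends on the fit and is not a measure of 3 libraries alone. For Hif1a the adjusted p was 5.6e-62 with edgeR, 6.79e-25 with edgeR after the filter on low counts, and 3.7e-12 with limma.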

Additional observations from a re-analysis of the deposited data

How the results depend on the processing

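The number of genes above 1 RPKM stayed within 1.5 times its value of 9056 under every alternative run. The number below, 2064, was 267 with DESeq2 and 9592 with limma, and ran from 370 to 1613 with a replicate left out, so calls below 1 RPKM depend on the test and on the libraries. Of the 10 genes, limma called 1 below, Vegfb, and the others called 0. The log2 level of Vegfc, 0.07, changed side to -0.63 with the longest transcript, and it ran from -0.13 without replicate 2, through -0.01 without replicate 1, to 0.32 without replicate 3. With a pseudocount of 1 the log2 ratio was 5.03 for Angpt1 to Angpt2, 6.86 for Hif1a to Epas1 and -1.63 for Flt1 to Kdr. With the shortest transcripts it was 9.48 for Hif1a to Epas1 and -0.98 for Vegfc to Figf. Taking the row with the highest count moved no result of the 10 genes. Vegfb had no value without replicate 3 or with the filter on low counts. No paired analysis was possible because the libraries form 1 group. Vegfc, Angpt2 and Vegfb had 181, 270 and 5 counts over all libraries, and the spread of the first pair was 7.33 and 20.3 times the counting variance.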
